A study of Mus musculus with 4 samples.

Results

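The accessible chromatin around 7 genes that encode the nuclear effectors of canonical WNT signalling was described in surface ectoderm of the facial prominences of mouse embryos at embryonic day 11.5 (E11.5). The genes were Lef1, Tcf7, Tcf7l1 and Tcf7l2 (the TCF/LEF family), Ctnnb1 (β-catenin), and Bcl9 and Bcl9l (adaptors of β-catenin). ATAC-seq, in which a transposase inserts into DNA that is free of nucleosomes, had been run on 4 libraries of 50000 cells each. Both control libraries came from littermates that lacked the Crect transgene and carried Tfap2a flox/+; Tfap2b flox/+, so the controls were themselves heterozygous for floxed alleles. Both mutant libraries came from ectoderm double knockout (EDKO) embryos of the genotype Crect; Tfap2a flox/flox; Tfap2b flox/flox, in which the ectodermal Cre removes the AP-2 transcription factors AP-2α and AP-2β. Cre in this line is driven by a Tfap2a intronic enhancer, and recombination beyond the ectoderm can occur with it. To avoid this, the transgene was passed on by sires that had been tested with a reporter. The ectoderm of all facial prominences was lifted from the mesenchyme with Dispase, so upper and lower face were not separated.

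Peaks were taken from 2 lists. The list of 65467 control peaks was called from both control libraries together. For the list of 3103 AP-2-dependent regions the EDKO libraries served as the background to the control libraries, and it so holds places that were less accessible in EDKO embryos. A row belonged to a member gene when its centre lay within 100 kb of the start site of the gene's principal transcript, which gave 112 control peaks and 5 AP-2-dependent regions in all. No peak belonged to more than 1 member. Every value belongs to libraries combined, so no value has an error between replicates, no difference between genotypes could be tested here, and the read depth behind a peak is unknown. Peak strength is given as the −log10 p at the summit and as the area under the curve (AUC) of −log10 p over the peak, both of which rise with read depth as well as with accessibility. As a check of the tissue, the start sites of 8 of 8 surface ectoderm genes (keratin genes, Epcam, Cdh1, Trp63 and Esrp1) lay in a control peak, as did 6 of 8 for mesenchyme and 1 of 8 for blood and endothelium, where Kdr was the exception. An open start site does not show that a gene is transcribed, and the part of mesenchyme in these values was not tested.

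In canonical WNT signalling, a Wnt ligand bound to its Frizzled receptor stops the destruction complex from marking β-catenin for breakdown. β-catenin then enters the nucleus and binds a TCF/LEF factor on DNA, and BCL9 proteins tie it to further co-activators. Without β-catenin the TCF/LEF factors recruit Groucho/TLE co-repressors, and of the family Tcf7l1 is best known as a repressor whereas Lef1 is best known as an activator. Lef1 also has an internal promoter from which a shorter protein is made that lacks the β-catenin binding stretch at the N-terminus. WNT signalling in facial ectoderm is needed for the outgrowth and fusion of the prominences.

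Of the 7 genes, Lef1, Tcf7l1, Ctnnb1 and Bcl9l had an AP-2-dependent region within 100 kb, and Tcf7, Tcf7l2 and Bcl9 had none. All 5 regions lay at least 25.4 kb downstream of the start site, each inside 1 control peak, and no start site used for a member lay in or within 5 kb of a region. Of the control peaks, 12 of 18 at Lef1, 13 of 17 at Tcf7l1, 15 of 20 at Ctnnb1 and 4 of 14 at Bcl9l also lay downstream. With 5 regions, no preference for a side can be read. The regions were 246 to 578 bp wide, against a median of 360 bp over all regions, and the Tcf7l1 region at +65.1 kb was the strongest, with an AUC of 924 against a median of 395. The sequences that carry these results are printed first. The 4 regions with enough sequence outside untranslated regions are shown on the forward strand of GRCm38, 5′ to 3′, as up to 200 bases around the summit. Capitals mark matches to a pair of AP-2 half-sites (GCC followed after 3 or 4 bases by GGC or GGG) or to GGAATG, the core string of the TEAD factors of the Hippo pathway. Matches on either strand are marked, so that CATTCC marks GGAATG on the reverse strand. The Lef1 sequence covers chr3:131156576-131156714 and the Tcf7l1 sequences cover chr6:72724044-72724243 and chr6:72763825-72764024. The Ctnnb1 sequence covers chr9:120997954-120998153.
Lef1 +46.1 kb: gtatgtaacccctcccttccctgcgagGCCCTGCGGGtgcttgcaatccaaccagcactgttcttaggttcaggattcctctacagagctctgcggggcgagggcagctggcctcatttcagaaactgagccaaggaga
Tcf7l1 +65.1 kb: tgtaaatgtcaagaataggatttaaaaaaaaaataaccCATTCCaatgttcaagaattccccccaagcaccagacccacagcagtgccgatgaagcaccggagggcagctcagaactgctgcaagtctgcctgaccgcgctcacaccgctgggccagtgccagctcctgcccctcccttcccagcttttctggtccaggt
Tcf7l1 +25.4 kb: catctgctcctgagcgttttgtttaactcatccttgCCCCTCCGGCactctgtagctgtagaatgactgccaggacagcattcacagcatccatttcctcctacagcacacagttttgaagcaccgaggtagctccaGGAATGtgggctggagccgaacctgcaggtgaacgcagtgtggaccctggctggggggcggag
Ctnnb1 +64.5 kb: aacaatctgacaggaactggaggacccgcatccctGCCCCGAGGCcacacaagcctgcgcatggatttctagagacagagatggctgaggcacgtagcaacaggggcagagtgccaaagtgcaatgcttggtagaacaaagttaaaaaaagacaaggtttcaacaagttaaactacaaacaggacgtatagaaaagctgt

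The promoter of a member is printed in 2 cases where the peaks bear on it. The internal Lef1 start site is shown because it lies in a control peak that overlaps an AP-2-dependent region. The Ctnnb1 promoter is shown because it was the only promoter among the members found in the RefSeq table that held GCCNNNGGC. Each sequence is the 250 bases before a RefSeq start site on GRCm38.p6, 5′ to 3′ on the forward strand, which is the strand of both genes. The Lef1 sequence covers chr3:131156044-131156293 and its capitals are TCAAAG, the reverse complement of the TCF/LEF core string CTTTGA. The Ctnnb1 sequence covers chr9:120933150-120933399 and its capitals are pairs of AP-2 half-sites, which overlap at the second site.
Lef1 internal start: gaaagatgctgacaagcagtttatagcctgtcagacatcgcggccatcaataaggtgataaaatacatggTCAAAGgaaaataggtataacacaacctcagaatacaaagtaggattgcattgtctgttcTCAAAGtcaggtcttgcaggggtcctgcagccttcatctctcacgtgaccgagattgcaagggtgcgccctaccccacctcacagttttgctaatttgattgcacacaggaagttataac
Ctnnb1 start: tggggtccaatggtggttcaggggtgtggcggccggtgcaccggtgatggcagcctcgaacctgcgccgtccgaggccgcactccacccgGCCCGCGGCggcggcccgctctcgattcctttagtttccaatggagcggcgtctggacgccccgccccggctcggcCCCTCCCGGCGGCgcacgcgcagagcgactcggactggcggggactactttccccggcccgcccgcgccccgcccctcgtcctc

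Lef1 encodes a high-mobility-group factor that bends DNA and activates WNT targets with β-catenin. The gene starts at chr3:131110471 on the plus strand, and 18 control peaks lay within 100 kb, more than for 87.2% of the 21829 protein-coding genes. Its start site lay in a peak of 3707 bp with a summit −log10 p of 9.83, and only 3 of the 18 peaks lay within 5 kb. The largest other peak by AUC was 2873 bp wide and lay at -3.31 kb, with a −log10 p of 8.24. No other protein-coding gene starts within 100 kb of Lef1, and 12 of the 18 summits fell inside the gene itself. Apart from the start-site peak and that at +2.79 kb, which lie in intron 1, these were in intron 3, where the strongest summits were at +33.1 kb with a −log10 p of 9.51 and at +45.8 kb with a −log10 p of 9.64.

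Only the second of these peaks, chr3:131155680-131156904, overlapped an AP-2-dependent region. The region, chr3:131156437-131156702, was 266 bp wide and filled 21.7% of the control peak. Its AUC was 386 and its summit −log10 p 4.45, above 48.4% and 51.6% of all regions. In the GENCODE principal transcript it lies in intron 3, at +46.1 kb. In RefSeq the same place is the first exon of a shorter Lef1 transcript, which starts at 131156294. The region begins 143 bp and has its summit 321 bp downstream of that start, and 139 bp of it are exon, all untranslated. The shorter transcript encodes 216 residues against 397 for the full-length form. The control peak holds the internal start site itself. It was the only one of the 14 RefSeq start sites of the 7 genes whose control peak overlapped a region.

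The Lef1 sequence printed above held 1 pair of AP-2 half-sites, GCCCTGCGGG, whose first base lies 12 bp before the region's summit. In the 250 bases before the internal start, the TCF/LEF core string CTTTGA occurred 2 times on the reverse strand, with first bases at −180 and −120 bp. Of the 32851 promoter windows of the same length in RefSeq, 13.8% held CTTTGA. Of the 6 members with a main promoter in the RefSeq table, 0 held it there. Both matches before the internal start lie in the control peak but before the region begins. One further region lay just outside the distance limit, at +103.9 kb, where the nearest control peak beyond the limit also overlapped it.

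Tcf7l1, the family member known as a repressor, had 2 of the 5 regions. It starts at chr6:72789254 on the minus strand and had 17 control peaks, more than 85.0% of genes. The start site lay in a peak of 2961 bp with a −log10 p of 11.1. As at Lef1, 12 of the 17 summits fell inside the gene, all of them in intron 3. The largest other peak by AUC, at +64.7 kb, had a width of 2018 bp and a −log10 p of 9.07, and it held the stronger region. That region, chr6:72723886-72724463, was 578 bp wide with an AUC of 924 and a −log10 p of 6.14, above 84.6% and 82.3% of all regions. It filled 28.6% of its control peak, and its summit lay 270 bp from that of the control peak.

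The other Tcf7l1 region, chr6:72763759-72764004, lay at +25.4 kb in the same intron. It was 246 bp wide with an AUC of 312 and a −log10 p of 4.11, above 34.2% and 36.8% of all regions. Its control peak had a −log10 p of 9.43. The control peaks at +25.7 and +64.7 kb were thus the strongest of Tcf7l1 apart from the start-site peak, whose −log10 p was 11.1. The 10 control peaks that lie from +27.4 to +94.2 kb and did not overlap a region had a −log10 p of at most 6.55. Both Tcf7l1 regions held GGAATG. In the +65.1 kb region it began at -157 bp from the summit on the forward strand, outside the sequence printed, and at -62 bp on the reverse strand. In the +25.4 kb region it began 37 bp after the summit. Each also held a pair of AP-2 half-sites, at 165 bp after the summit in the first, outside the sequence printed, and from 64 bp before it in the second.

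Tcf7 and Tcf7l2 complete the family and had no region within 100 kb. Tcf7, which like Lef1 can activate WNT targets, starts at chr11:52282571 on the minus strand. Its start-site peak, at a −log10 p of 7.85 and 2571 bp, was the weakest of the 7. Only 5 of its 15 control peaks had the Tcf7 start as their nearest start site, since Olfr1371, Skp1a and Vdac1 also start within 100 kb. The largest other peak by AUC, with a −log10 p of 10.99, was the promoter peak of Vdac1. The highest summit, with a −log10 p of 12.04, lay at +58.1 kb, where the Skp1a start is nearer than that of Tcf7. The nearest region to Tcf7 lay at -245 kb.

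Tcf7l2, which is widely used as the nuclear partner of β-catenin in epithelia, starts at chr19:55742269 on the plus strand and had 17 control peaks. The start site itself fell between a pair of peaks, 96 bp from the first, and the RefSeq start at 55741810 lay inside the first. The first had a −log10 p of 10.5 and a width of 1381 bp, and the second a −log10 p of 7.52 and a width of 3373 bp. A run of 6 peaks followed between +5.21 and +12.2 kb in intron 3, with −log10 p values between 3.35 and 6.87. The median −log10 p over the 17 peaks was 4.06, the lowest of the 7 genes. The nearest region lay at -284 kb.

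**Figure D1:**
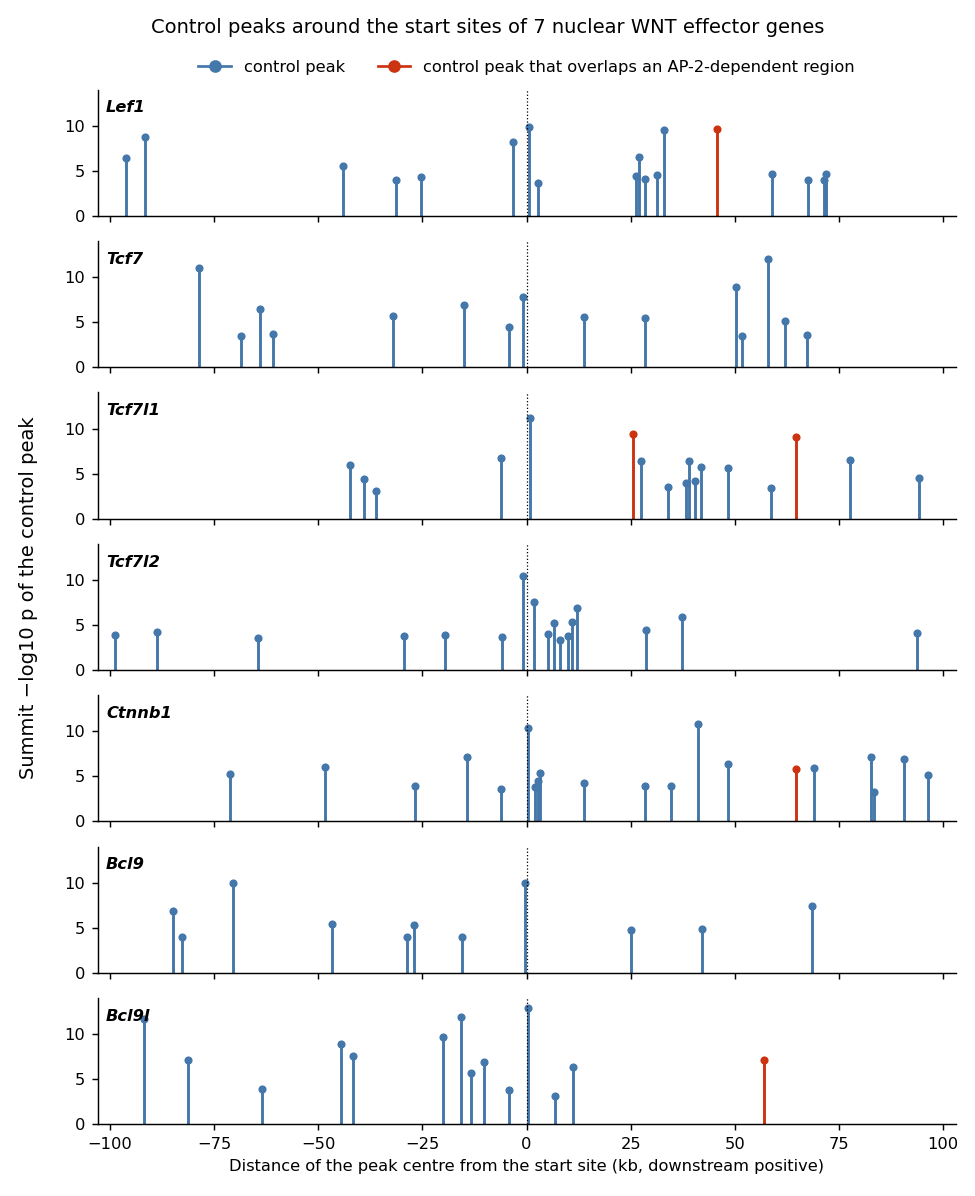
Each panel shows 1 gene, with the distance of each control peak from the start site in kb (downstream positive) on the horizontal axis and the summit −log10 p of the peak on the vertical axis. Lines with dots are the 112 control peaks, of which the 5 in red overlap an AP-2-dependent region, and all of these lie downstream of the dotted start site.

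Ctnnb1 encodes β-catenin, which acts in the nucleus with TCF/LEF factors and at the membrane with cadherins. It starts at chr9:120933400 on the plus strand and had 20 control peaks, more than for 90.7% of genes and the most of the 7. The start-site peak was 1911 bp wide with a −log10 p of 10.4. All 20 peaks had the Ctnnb1 start as their nearest start site, but 9 of them lay in intron 35 of the neighbouring gene Ulk4, a kinase gene. Among these was the largest other peak by AUC, at +41.3 kb, with a −log10 p of 10.9, and it did not overlap a region. The AP-2-dependent region, chr9:120997717-120998115, lay at +64.5 kb in the same intron. It was 399 bp wide with an AUC of 368 and a −log10 p of 4.27, above 45.4% and 44.5% of all regions. Its control peak, with a −log10 p of 5.81, was weaker than those around the Lef1 and Tcf7l1 regions, and the region filled 45.9% of it. The AP-2 half-site pair GCCCCGAGGC began 65 bp before the summit.

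Bcl9 and Bcl9l encode paralogous adaptors that bind β-catenin and bring Pygopus proteins to it. Bcl9 starts at chr3:97227364 on the minus strand and had the fewest control peaks of the 7, at 11, which was still more than for 64.6% of genes. The start-site peak had a −log10 p of 9.94 and a width of 2355 bp. A peak of similar strength lay at -70.5 kb, with a −log10 p of 9.96 and a width of 2426 bp. Of the principal start sites, that of Bcl9 was the nearest to it. The peak also holds the 5′ end of the Bcl9 gene as annotated over all its transcripts, at 97297917. No region lay within 100 kb of Bcl9, and the nearest was at +139.2 kb.

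Bcl9l starts at chr9:44499136 on the plus strand and had the strongest start-site peak of the 7. It was 5706 bp wide, wider than 99.9% of all control peaks, with a −log10 p of 12.9. The 14 control peaks of Bcl9l had a median −log10 p of 7.15, the highest of the 7. This locus is dense in genes: 6 other genes (Ccdc84, Cxcr5, Foxr1, Rps25, Trappc4 and Upk2) start within 100 kb, and 8 of the 14 peaks had the Bcl9l start as their nearest. The largest other peak by AUC lay at -20.02 kb, with a −log10 p of 9.72. The 1 region near Bcl9l, chr9:44556229-44556486, lay at +57.2 kb and was the smallest of the 5 by AUC, at 231, above 11.3% of all regions. Its summit fell in an untranslated region of Cxcr5, a chemokine receptor gene, and its centre lay 34 bp from an annotated start of a Cxcr5 transcript. The start site of the principal Cxcr5 transcript was also nearer to it than that of Bcl9l, with the region at -29.9 kb. The sequence is therefore not shown, and the region held GGAATG and no pair of AP-2 half-sites.

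**Figure D2:**
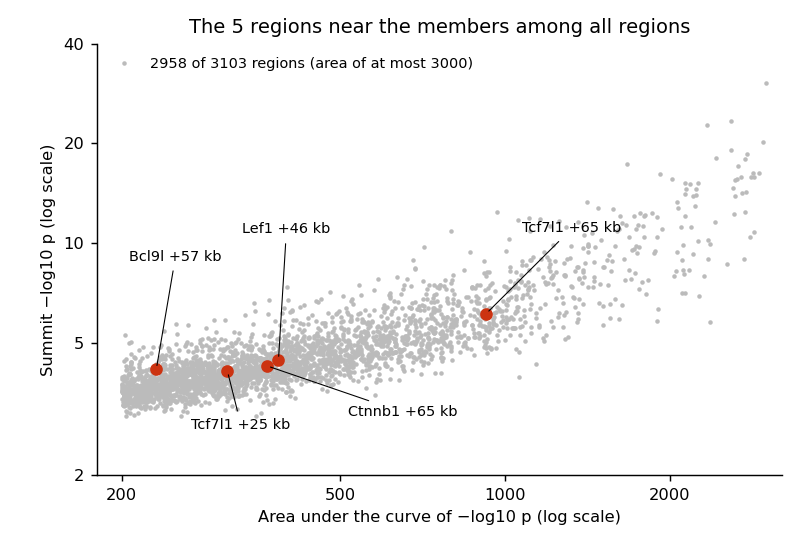
AUC on the horizontal axis and summit −log10 p on the vertical axis, both on log scales, are plotted for the AP-2-dependent regions (grey), and the 5 regions near the members are in red with their distance from the start site. The plot stops at an AUC of 3000 and so shows 2958 of 3103 regions. The Tcf7l1 region at +65.1 kb stands at an AUC of 924 and the other 4 between 231 and 386.

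By protein-coding transcripts, the summits of the 112 control peaks were mostly outside exons. Of these, 55 lay in introns, 44 of them introns of the member gene. Another 48 lay outside every such transcript, 8 in an untranslated region and 1 in a coding exon. Among the 48 are 5 summits that lie within the Bcl9 gene as annotated over all its transcripts. The median summit −log10 p was 5.41, with a 95% interval of the median from 4.64 to 5.84 (order statistics, over peaks), against 5.10 over all control peaks on chromosomes. The 13 peaks at promoters (start site at most 1 kb away) had a median of 9.94 against 9.22 for all such peaks, and the 88 peaks over 5 kb from every start site had a median of 5.23 against 4.66. Among genes, the medians ran from 4.06 for Tcf7l2 through 4.62 for Lef1, 5.32 for Bcl9, 5.36 for Ctnnb1, 5.61 for Tcf7 and 5.68 for Tcf7l1 to 7.15 for Bcl9l, and the peaks of all 7 genes overlapped in range. Start-site peaks were near the top of each gene, at 7.85 to 12.9. Of the 7 start sites, 6 lay in a control peak, against 60.9% of all protein-coding genes. The exception was Tcf7l2, whose start fell in the gap between a pair of control peaks.

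**Figure D3:**
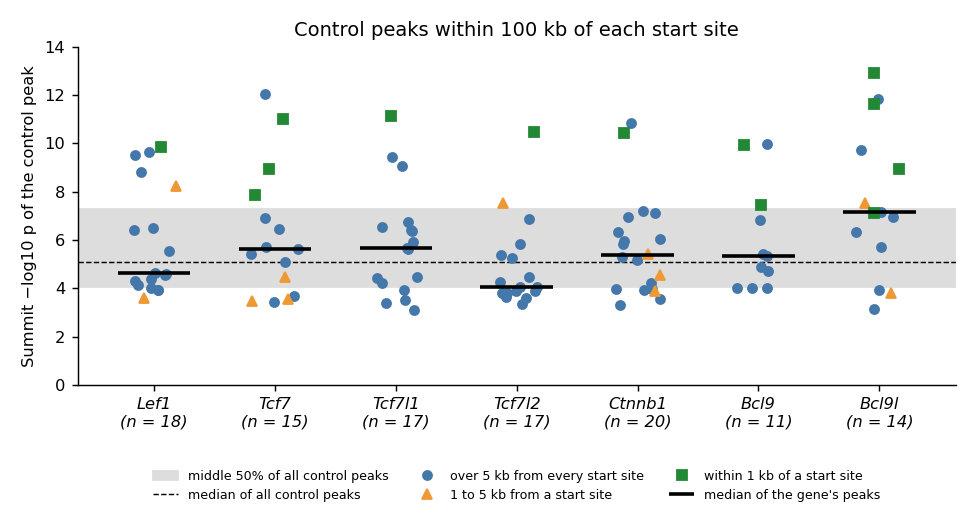
Each point is the summit −log10 p of 1 control peak within 100 kb of the start site of the gene named on the horizontal axis, with its shape giving the distance to the nearest start site of any gene and the thick line the median of the gene. The grey band is the middle 50% of all control peaks and the dashed line their median of 5.10. The median of Tcf7l2 lies lowest, at 4.06, and that of Bcl9l highest, at 7.15.

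The share of these peaks that overlapped a region of lower accessibility in EDKO embryos lay at the share of all control peaks. Of the 112 control peaks, 5 overlapped an AP-2-dependent region by at least 1 bp, which is 4.46% with a 95% Wilson interval from 1.92% to 10.0%, and 4.48% of all 65467 control peaks did so, or 3.65% of the 52460 that lie within 100 kb of a protein-coding start. Intervals of this kind cover counting error only. Counting 1 start site per gene, that of its principal transcript, all 5 were over 5 kb from every start site, where they made up 5.68% of the 88 member peaks (2.45% to 12.6%) against 5.73% of all such peaks. Nearer than that to a start site, 0 of 24 member peaks did so, which allows a share of up to 12.5%, against 1.54% of all such peaks. Both counts depend on the start sites used, since the Lef1 peak holds the internal RefSeq start and the Bcl9l peak holds the start of the other Cxcr5 transcript. Among peaks over 5 kb from every principal start with a −log10 p of 10.2 or more, 24.8% of 1272 overlapped a region. Of the 3 such peaks of the members, at +58.1 kb of Tcf7, +41.3 kb of Ctnnb1 and -15.6 kb of Bcl9l, 0 did, and the last of these holds an alternative Bcl9l start at 44482825. With only 3 peaks, a count of 0 sets no useful limit on the share, so no contrast with the 24.8% can be drawn. For the Frizzled receptor genes 5 of 119 control peaks overlapped a region (95% interval 1.81% to 9.46%), and for the Wnt ligand genes 18 of 242 (7.44%, 4.76% to 11.4%). The interval of the members covers the shares of both families.

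**Figure D4:**
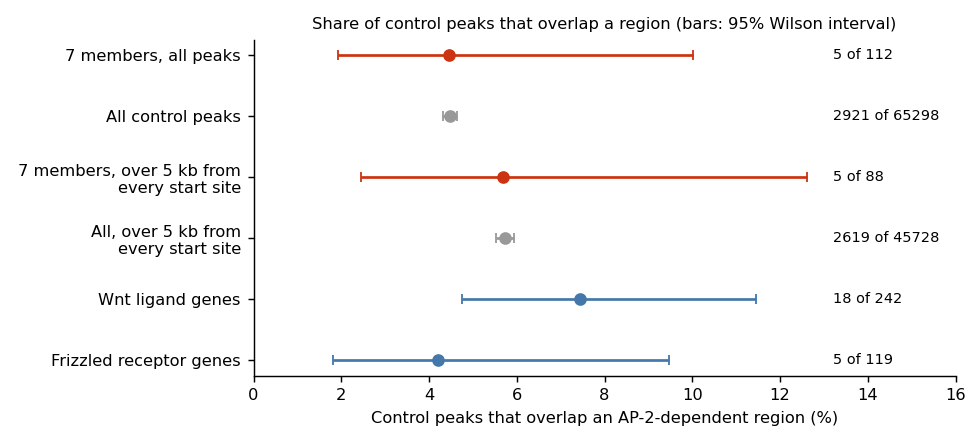
The horizontal axis gives the percent of control peaks that overlap an AP-2-dependent region, with bars for the 95% Wilson interval and the counts at the right, for the 7 members (red), all control peaks on chromosomes (grey) and the Wnt ligand and Frizzled receptor genes (blue). The share of the members, 5 of 112, lies at that of all control peaks.

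Counted by gene, 4 of 7 members had a region within 100 kb, against 20.2% of all protein-coding genes. The members, however, had many control peaks, with a median of 17 against 8 over all genes, and among the 6023 genes with 11 to 20 control peaks, as many as the members had, the share was 30.1%. With 7 genes, and with shares of peaks at the background, the count is given as a description.

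**Figure D5:**
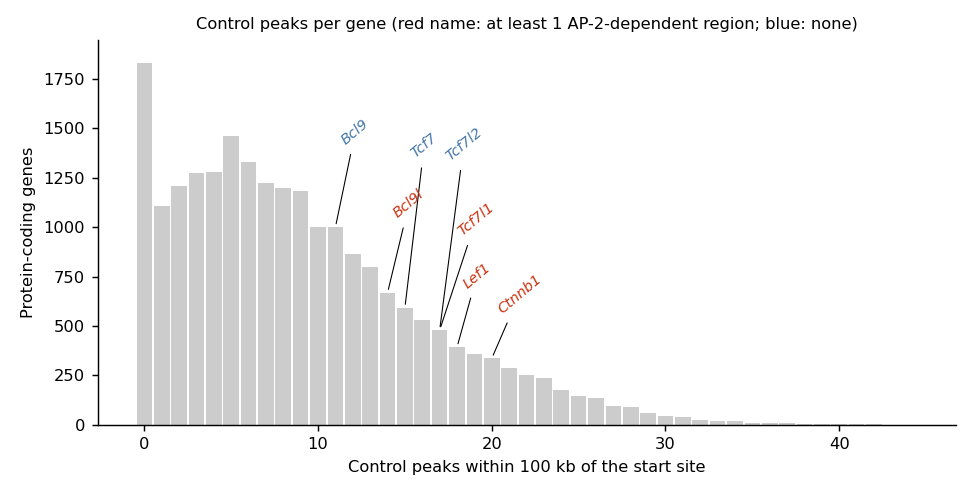
Grey bars give the number of protein-coding genes (vertical axis) with each number of control peaks within 100 kb of the start site (horizontal axis, shown up to 45), and lines mark the 7 members. All members lie between 11 and 20 peaks, above the median of 8, and names in red have at least 1 AP-2-dependent region.

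The strings of 4 factor families were counted on both strands within 100 bp of the summit of each control peak. GCCNNNGGC, the AP-2 consensus string, occurred in 17 of 112 member peaks (15.2%, 95% Wilson interval 9.70% to 23.0%) and in 14.4% of all control peaks. CTTTGA, the string bound by the products of 4 of the members themselves, occurred in 21 of 112 (18.8%, 12.6% to 27.0%) and in 13.4% of all. Of the 21, 7 belonged to Lef1, 5 each to Tcf7l2 and Ctnnb1, 2 to Bcl9, and 1 each to Tcf7 and Bcl9l, and the 17 peaks of Tcf7l1 held none. GGAATG occurred in 24 (21.4%, 14.8% to 29.9%, against 17.9%) and the Grainyhead-like string AACCNGTT in 7 (6.25%, 3.06% to 12.3%, against 3.09%). The lower bound for AACCNGTT lay just under the share of all peaks, and each other interval also covered the share of all peaks. Over 5 kb from every principal start it occurred in 7 of 88 member peaks (7.95%, 3.91% to 15.5%), an interval just above the 3.68% of all such peaks, in a comparison that was 1 of several and was not tested. Searched over whole peaks, which were wider for the members (median 677 bp against 560 bp), CTTTGA occurred in 49.1% (40.0% to 58.2%) against 37.0% of all peaks, so that the interval for this string covered the share of all peaks only with the narrower windows. Median GC content within 100 bp of the summit was 54.2% against 53.2%. Over 5 kb from every principal start it was 53.2% against 50.7%, and the shares of strings were not matched for GC.

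None of the 5 regions held GCCNNNGGC anywhere along its length, which with 5 regions allows a share of up to 60%, and 29.7% of the 3072 regions on chromosomes held it. The wider set of half-site pairs marked above, which includes GCCNNNGGC and was added after this was seen, occurred in 4 of the 5 regions and in 78.9% of all regions. Over the same whole lengths, CTTTGA and AACCNGTT occurred in none of the 5, against 27.6% and 4.92% of all regions, and GGAATG in 3 of 5, against 30.8%. Of the 6 members in the RefSeq promoter table, 5 held a half-site pair in the 250 bases before the start and 1, Ctnnb1, held GCCNNNGGC, against 42.2% and 13.7% of all promoters. The fixed letters of these strings are all G or C, and the 6 promoters had 64.4% to 79.2% GC. The shares of all promoters were not matched for GC. A match to a string is not a binding site, and its absence says nothing about a factor beyond these letters.

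Other genes that act on or with β-catenin were counted by the same rule. Of 41 genes in 5 lists, 16 had at least 1 AP-2-dependent region within 100 kb (39.0%), against 20.2% of all protein-coding genes. They had 2 to 30 control peaks each, with a median of 13 against 8 over all genes. With peaks shared by neighbours counted once, 21 of 554 overlapped a region (3.79%, 2.49% to 5.73%), against 4.48% of all control peaks. Of the destruction complex and its regulators, 4 of 10 had a region: Axin2, a scaffold and feedback target, at +91.5 kb, the kinase gene Gsk3a at -42.0 kb, and the ubiquitin ligase genes Btrc at -45.9 and -39.0 kb and Fbxw11 at +60.01 kb. The Axin2 region was the largest of all these, with an AUC of 18931, above 98.9% of all regions. Its summit −log10 p was 66.3, and the next highest among the regions of these genes was 14.3, upstream of Cdh3. Of the short sequence words in the Axin2 region, 91.2% had 1 copy on the chromosomes and the rest at most 3. Whether so high a value reflects mapping or copy number rather than accessibility was not tested. The Axin2 region is not the element shown in the study. The AP-2-dependent peaks shown there near Axin2 lie upstream, in introns of Cep112, beyond the limit used here.

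Of the co-activators 3 of 7 had a region, Ep300 at -71.1 kb, Smarca4 at -70.0 kb and Med12 at -6.53 kb, with an AUC of at most 294. Among co-repressors and inhibitors of the complex 3 of 10 did: the Groucho homologue Tle4 at -67.7 and -6.80 kb, Ctbp1 at +59.0 kb, and Ctnnbip1, which keeps β-catenin from TCF factors, at -51.2 kb. The Ctnnbip1 region lay in repeated sequence, with a median of 18 copies in the genome. Feedback targets had a region in 2 of 9 genes, the ubiquitin ligase genes Znrf3, at -6.09 and +17.4 kb, and Rnf43, at -7.03 kb, which both remove Frizzled receptors from the membrane.

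Of the catenins and their adhesion partners, 4 of 5 genes had a region. Ctnna1 had a region at -73.0 kb and Ctnnd1 at +15.6 kb, while the neighbouring cadherin genes Cdh1 and Cdh3 had 3 each and shared 2 of them. The strongest of these lay 41.2 kb upstream of Cdh3, with an AUC of 2747. With shared peaks counted once, these genes had 82 control peaks, of which 6 overlapped a region (7.32%, 3.4% to 15.1%), an interval that covers the 4.48% of all control peaks. No difference between the lists was tested.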

How the data were processed

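The members and all gene lists and strings were chosen with earlier results of these data known. Per the labels and the study's methods, the authors trimmed reads with NGmerge, aligned them to mm10 with bowtie2 (--very-sensitive -k 10), sorted them with SAMtools and called peaks with Genrich (-j, -y, -r, -e chrM). The version of bowtie2 is not given in the sources used here. Each list was called from libraries combined. The deposited values are a score (1000 times the area under the curve, AUC, over the width, at most 1000), the AUC, itself a score that is at least 200 in every row, the −log10 p of the summit (not adjusted for the number of positions), and the summit offset. Up to 10 positions per read pair were kept, so the copy number of each member peak was taken as the median count of its 31-base words on the chromosomes. All 5 regions were single-copy, and 4 of 112 control peaks had a median of 2 or more copies.

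mm10 and the GRCm38 reference share coordinates. Start sites came from GENCODE (mouse release 21), 1 per protein-coding gene: best APPRIS level, then lowest transcript ID. Promoter sequences came from RefSeq (GRCm38.p6). Overlaps, distances and strings were computed with Python 3.11.15, pandas 2.3.3 and pysam 0.24.0, and overlap and distance steps were tested on simulated intervals. Genes named are the 7 members and, of 41 pathway genes in 5 lists, those with a region. Peaks of 1 combined call are not replicates, and no test was run. RNA-seq values, read tracks and the regions that gained accessibility were not analysed here. The floxed exons of Tfap2a and Tfap2b cannot be checked from peak lists. Alternatives were other distance limits, start sites, AUC thresholds, overlaps, search windows and gene assignment.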

Additional observations from a re-analysis of the deposited data

How the results depend on the processing

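No paired analysis was possible because each list was called from its libraries combined, and leaving out a library was not possible for the same reason. Of 55 alternative values, 36 stayed within the 95% interval of the reported value or, for counts, within 1.5 times of it, and the other 19 follow. With a limit of 50 kb there were 74 control peaks and 2 regions at 2 members, 9 pathway genes had a region, and 2.70% of member peaks overlapped one. A limit of 250 kb gave 238 control peaks, 11 regions and 30 pathway genes, and the share of peaks that overlap a region was 4.62%. At none of these alternative settings was the share of all protein-coding genes with a region counted. The counts of members and of pathway genes given here therefore have no background to be read against. With only peaks and regions of an AUC of at least 500, 1 region remained, that of Tcf7l1 at +65.1 kb, so 1 member had a region, 1.28% of member peaks overlapped one (2.46% of all control peaks at that threshold), the median −log10 p was 6.39, and 8 pathway genes had a region. When a region had to fill at least 50% of both intervals, the share fell from 4.46% to 0.0% (0 of 112, which allows a share of up to 2.68%), against 2.87% of all control peaks. The GREAT rule, run here with an extension of up to 1000 kb, assigned 10 regions to members. With it 4 members still held a region, but Tcf7l2 in place of Bcl9l. For its pathway analysis the study limited the distal reach of this rule to 100 kb, and the nearest region to Tcf7l2 lay at -284 kb. Over whole peaks GCCNNNGGC occurred in 32.1% (32.4% of all control peaks) and CTTTGA in 49.1% (37.0%), and within 50 bp of the summit in 8.93% (7.42%) and 8.04% (5.98%). The set of 4 half-site pairs, chosen after seeing the data, occurred in 53.6% (44.4% to 62.5%, all 46.5%), and within 50 bp in 37.5% (29.1% to 46.7%, all 27.3%), where the interval lies above the share of all peaks. Leaving out the Bcl9l region, whose centre lies within 1 kb of a Cxcr5 start site, left 4 regions at 3 members. The lists hold no counts, so the depth behind the regions is unknown, and 4 of the 5 had an AUC under 500.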
